A study of Mus musculus with 12 samples.

Results

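The genes described here encode the proteins of the cytosolic ribosome. They were taken as protein-coding genes with an Rpl or Rps symbol followed by a number, together with Rpsa, Rplp0, Rplp1 and Rplp2, without pseudogenes and without the Rps6k kinases. Of 88 matching symbols 83 were protein-coding, and 71 of these had a CPM (the count scaled to the total of its library) above 1.5 in at least 2 libraries. These 71 genes, 44 of the large subunit and 27 of the small subunit, are among 11228 genes that passed the same filter, of 48795 listed.

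RNA was sequenced from mouse bone marrow-derived macrophages (BMDMs) grown with M-CSF, in 12 libraries, 2 in each of 6 groups. Cells were wild-type (WT, named C57BL/6 in the labels and C57BL/6NJ in the study's methods) or Acod1-/- (C57BL/6NJ-Acod1em1(IMPC)J/J), an edited allele of the gene for the enzyme that makes itaconate. Both genotypes received vehicle, particulate matter (PM) at 20 μg/cm2 for 24 hours, or 4-octyl itaconate (OI), a cell-permeable itaconate derivative, at 0.25 mM from 2 hours before the same PM exposure. No OI group without PM was analysed here. Nothing in the sources says whether the 2 libraries of a group came from separate mice, so the spread between them may be technical. The p-values of the main fit rest on that spread estimated over all 6 groups together, not in the compared groups alone.

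The libraries held 33616577 to 36817898 counts. Acod1, the edited gene, had 69 and 98 counts with vehicle, 6346 and 5908 with PM and 1087 and 1688 with OI and PM in WT libraries, and 46 and 44, 3660 and 3271, and 812 and 871 in the libraries labelled Acod1-/-. A count over the whole gene does not check an edit of one part of it, and which part was edited is not given in the sources used here. The 10 macrophage markers were all detected, with a summed level of 13751 to 27777 CPM. T cell and erythroid markers summed to at most 0.0582 and 0.350 CPM, and the 5 neutrophil markers to between 3.91 and 53.2 CPM.

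A ribosome joins a small subunit, which reads the mRNA, to a large subunit, which forms the peptide bond. Its proteins are made in matched amounts, and many of their mRNAs begin with a run of pyrimidines (the 5′ TOP motif) through which mTOR signalling controls their translation. That control acts on how an mRNA is translated, and the libraries here measure mRNA amount. These genes have also left many processed pseudogenes, which are copies of the spliced mRNA elsewhere in the genome.

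The copies matter for counts from reads of 50 bases. The pair of coding windows of that length printed here shows a shared and an unshared stretch, from Rps6 (chromosome 4, small subunit, the protein phosphorylated by S6 kinases) and from Rps3 (chromosome 7, small subunit), read from annotated GRCm38 transcripts. Rps3 was chosen for this example after its values were seen. The Rps6 window is the one found in most other genes among those considered, so it is not a typical window. The Rps3 window is the one nearest the middle of the coding sequence among those considered.
Rps6 coding bases 464 to 513: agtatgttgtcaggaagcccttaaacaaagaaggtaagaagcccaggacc
Rps3 coding bases 341 to 390: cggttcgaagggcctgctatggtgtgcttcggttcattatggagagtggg
The Rps6 window occurred unchanged in transcripts of 11 other genes, among them Rps6-ps1, Rps6-ps3 and Rps6-ps4. The Rps3 window occurred in 0 other genes.

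The median member among the 83 had 9.74% of its 50-base coding windows in no transcript of another gene, and 28 members had no such window. The median was 100% for 75 mitochondrial ribosomal protein genes, 99.0% for 36 complex I subunit genes and 94.9% for 18 core proteasome genes. Windows were compared with annotated transcripts only, by exact match.

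The level of a member followed this share. The 28 members without a unique window had mean counts over the 12 libraries with a median of 98.4 and a highest value of 947, the 30 with up to 20% had a median of 1859, and the 25 above 20% had a median of 5553. Spearman's rho between the unique share and counts per coding base was 0.70 across the 83 genes, given as a description, since the genes share libraries and base composition. Rps6 had 16 to 25 counts in every library and a mean of 20.5. Rps3, with 91.9% of its windows unique, had 19410 to 37709 counts and a mean of 24309.

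**Figure D1:**
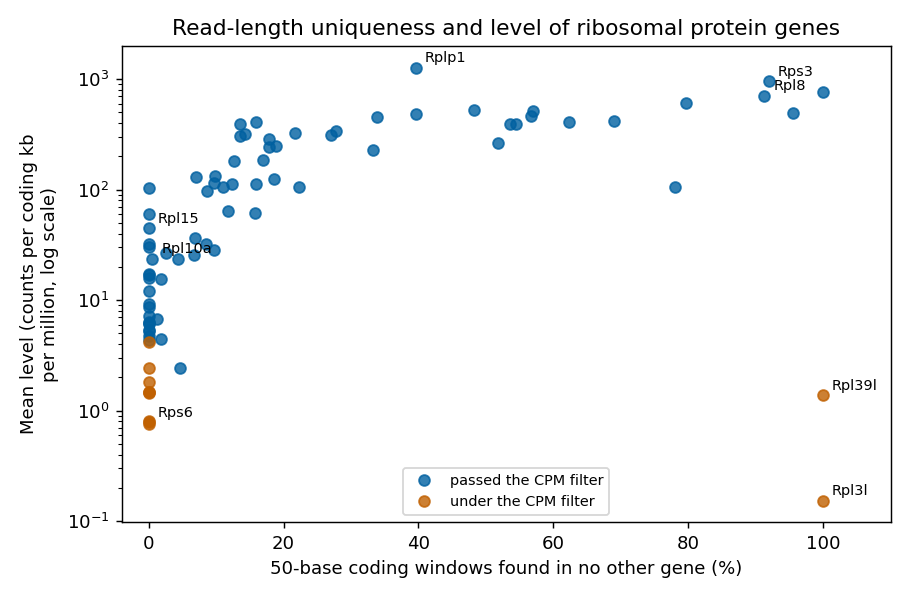
Each point is 1 of the protein-coding genes of the rule with a count. The x axis gives the percent of 50-base coding windows found in no other gene, and the y axis the mean CPM per coding kb on a log scale. Genes without a unique window lie between 0.764 (Rpl23a) and 104 (Rps28), and the tissue-restricted paralogues Rpl3l and Rpl39l are unique and low.

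The 12 members under the filter included Rps6, Rps16, Rps27, Rps29, Rpl19, Rpl23a, Rpl24, Rpl38, Rpl3l, Rpl10l and Rpl39l. Of the 12, 9 had no unique window, and the others were the paralogues Rpl3l, Rpl10l and Rpl39l. Rpl10l, a testis-expressed copy of Rpl10, had 0 counts in all libraries. Just inside the filter was Rpl36a, with a second-highest CPM of 1.73, and just outside was Rps27 with 1.30. How much of each mRNA the cells held cannot be told apart from how many of its reads were assigned, so the order of levels between members is an order of assigned reads.

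Per exonic kb, the highest mean CPM among members that passed was that of Rplp1 (873), an acidic stalk protein, followed by Rpl8 (403) and Rpl4 (381), both of the large subunit. The lowest were Rps7 (0.703), Rpl21 (0.751) and Rps13 (0.801). Of the coding windows, 39.6% were unique in Rplp1, 91.3% in Rpl8 and 79.7% in Rpl4, against 4.69% in Rps7 and none in Rpl21 and Rps13.

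All 71 members together took 0.653% to 1.09% of the counts of a library. The share was 0.684% and 0.713% in vehicle-treated WT cells, 0.688% and 0.865% with PM, and 0.768% and 1.09% with OI and PM. In Acod1-/- cells it was 0.673% and 0.653% with vehicle, 0.735% and 0.702% with PM, and 0.711% and 0.755% with OI and PM. The high values were the second PM-treated and the second OI and PM-treated WT libraries, and the PM and OI and PM groups of WT cells overlapped.

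**Figure D2:**
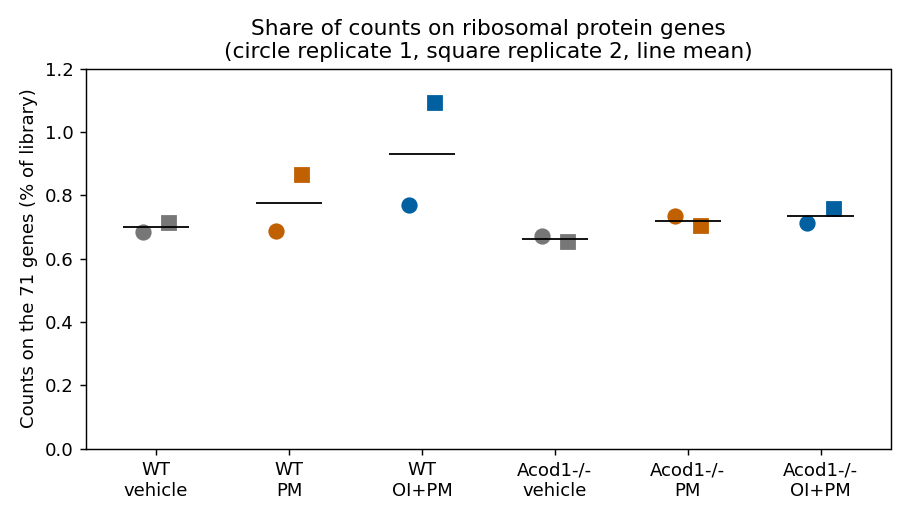
The y axis is the percent of each library's counts on the 71 genes, by group, with circles for replicate 1, squares for replicate 2 and a line at the mean. The second OI and PM-treated WT library, at 1.09%, stands above the others.

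The same 2 libraries stood apart within their groups, gene by gene. Of the 71 members 71 were higher in the second than in the first OI and PM-treated WT library, with a median log2 difference of 0.59, and 67 were higher in the second PM-treated WT library, with a median of 0.35. In the other groups the median lay between -0.13 and 0.09. The members are short, with a median exonic length of 2007 bases against 4478 over all tested genes. In the same pairs of WT libraries, the difference between libraries fell with exonic length over all tested genes (Spearman's rho -0.61 with OI and PM and -0.59 with PM). Within the 71 members rho was weaker, at -0.22 and -0.16. A lowess curve of level on exonic length, fitted without the members, gave 0.29 at the members' lengths for the OI and PM pair and 0.18 for the PM pair. The members lay a median of 0.25 and 0.15 above it.

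Other short genes moved likewise between these libraries. The median log2 difference of the OI and PM pair was 0.48 for mitochondrial ribosomal proteins, 0.62 for complex I subunits and 0.52 for core proteasome subunits, against 0.04 for all tested genes. What sets these libraries apart was not tested.

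**Figure D3:**
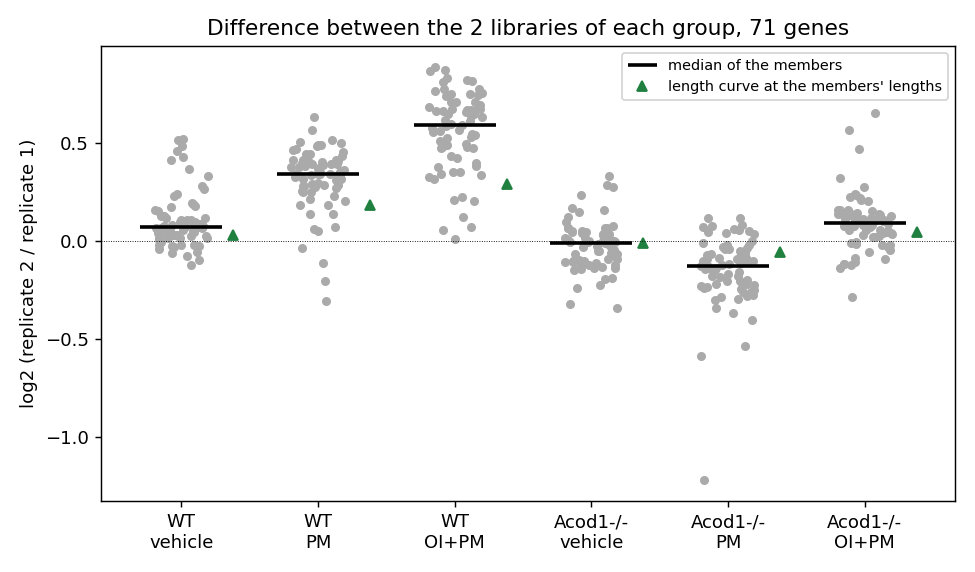
Each grey point is 1 of 71 genes, and the y axis is the log2 ratio of replicate 2 to replicate 1 in normalised CPM, by group. The black line is the members' median and the green triangle the length curve at the members' lengths; in both PM-exposed WT groups the points lie mostly above 0.

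The first comparison asked what PM did in each genotype. In WT cells 0 members rose and 1 fell, against 12.6% of tested genes called higher and 12.2% called lower by edgeR's quasi-likelihood test at an adjusted p of 0.05 (Benjamini-Hochberg over all tested genes). In Acod1-/- cells 0 rose and 1 fell, against 12% higher and 11.9% lower. At an unadjusted p under 0.05 there were 7 members in WT and 1 in Acod1-/- cells, against 40.8% and 37.1% of all tested genes. Both comparisons named the same gene, Rpl10a.

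Rpl10a encodes a protein of the large subunit (ENSMUSG00000037805.14, chr17:28328471-28331033, plus strand). Its normalised CPM was 19.0 and 20.0 in vehicle-treated WT cells, 14.2 and 13.8 with PM, and 14.1 and 14.8 with OI and PM. The Acod1-/- values were 19.6 and 17.8 with vehicle, 12.2 and 11.6 with PM, and 13.2 and 13.4 with OI and PM. The vehicle libraries did not overlap the PM-exposed libraries in either genotype. The log2 fold change with PM was -0.48 ± 0.08 (SE) in WT cells (edgeR adjusted p = 0.0020) and -0.65 ± 0.08 in Acod1-/- cells (edgeR adjusted p = 0.00028). Of its coding windows 0.501% were unique, and its exons overlap those of the annotated gene CT025652.2, so reads from related copies or from that gene cannot be told apart from its own.

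The other members lay mostly above 0 with PM without passing the test. The median log2 fold change was 0.26 in WT cells, where 67 of 71 values were positive, and 0.17 in Acod1-/- cells, where 59 were. With 1 library left out the WT median ran from 0.08 (without the second PM library) to 0.41 (without the first), and the Acod1-/- median from 0.10 to 0.24. Over all tested genes the WT median was 0.01. The length curve alone gave 0.19 and 0.14 at the members' lengths. After correction for exonic length the members' medians were 0.04 and 0.02. The counts moved with the set-up of the test: without the CPM filter 33 members were called higher in WT and 11 in Acod1-/- cells (7.79% and 6.97% of all 24979 genes then tested), and with the compared groups fitted alone 2 and 39 were (12.2% and 25.5% of all tested genes). Mitochondrial ribosomal proteins had medians of 0.28 and 0.19 and complex I subunits 0.35 and 0.27. Core proteasome genes had medians of 0.46 and 0.35, with 7 of 18 called higher in WT and 4 in Acod1-/- cells, against 12.6% and 12% of all tested genes.

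**Figure D4:**
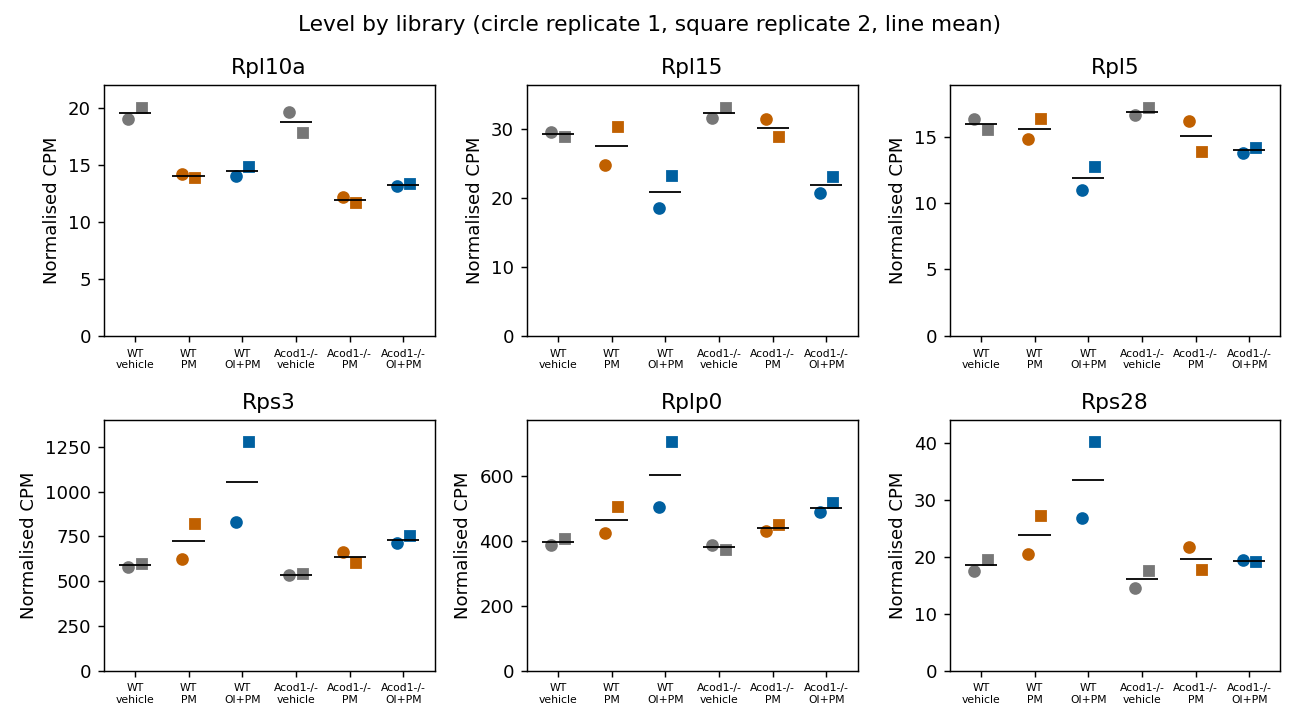
Normalised CPM of 6 named genes by group, with circles for replicate 1, squares for replicate 2 and lines at the group mean. Rpl10a is lower in the PM-exposed libraries of both genotypes, Rpl15 is lower with OI and PM, and Rps3, Rplp0 and Rps28 are highest in the second OI and PM-treated WT library.

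The next comparison set OI and PM against PM. In WT cells 6 members were called higher, against 21.3% of tested genes, and 2 lower, against 22.6%. In Acod1-/- cells 0 were called higher, against 13.9%, and 1 lower, against 20.6%. The unadjusted p was under 0.05 for 28 members in WT and for 3 in Acod1-/- cells, against 52.1% and 43.4% of all tested genes.

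The members called higher in WT cells included Rps12, Rpl12, Rps14, Rps3 and Rplp0. Rps3, a small subunit protein at the mRNA entry channel, had 625 and 818 normalised CPM with PM and 829 and 1274 with OI and PM. The groups did not overlap, but the second PM library and the first OI and PM library were close. Its log2 fold change was 0.54 ± 0.18 (SE, edgeR adjusted p = 0.030). Rplp0, the stalk protein P0 often used as a reference gene, had 425 and 507 CPM with PM and 507 and 705 with OI and PM. Its second PM library and its first OI and PM library had nearly the same value, so that the groups met, and the log2 fold change was 0.38 ± 0.13 (edgeR adjusted p = 0.044).

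Rps14, a small subunit protein, had 206.8 and 291.1 normalised CPM with PM and 278 and 478 with OI and PM in WT cells, so the groups overlapped, with a log2 fold change of 0.60 ± 0.22 (SE). Rpl12, of the stalk base, had 6.42 and 8.12 against 9.87 and 12.6 (0.63 ± 0.17), and its groups did not overlap. Rps12 was low, at 1.94 and 2.62 normalised CPM with PM and 3.14 and 4.39 with OI and PM (0.72 ± 0.20). Neither Rpl12 nor Rps12 had a unique coding window. The edgeR adjusted p of these genes ran from 0.015 for Rpl12 to 0.048 for Rps14.

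These calls rested on which libraries entered and on the method. With the compared groups fitted alone 0 members were called, against 5.33% of all tested genes higher and 11.9% lower. DESeq2 on all libraries called 21 higher, against 22.4%. Without the second OI and PM-treated WT library the median log2 fold change of the members went from 0.36 to 0.04. Without the first it was 0.62. With a PM-treated WT library left out instead, the median lay between these values. With the exonic length correction 22 were higher (25.4% of all tested genes) and the median was 0.23. The length curve gave 0.12 at the members' lengths, and the median of mitochondrial ribosomal proteins was 0.23 and of complex I subunits 0.31.

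The fold changes also differed with the share of unique windows. With OI in WT cells the median was 0.14 in the 19 members without a unique window, 0.36 in the 30 with up to 20% and 0.37 in the 22 above 20%. With PM the medians were 0.11, 0.30 and 0.26 in WT and -0.04, 0.20 and 0.22 in Acod1-/- cells. Both members called lower with OI are in the first class. The difference between the classes was not tested.

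A few members went the other way. Rpl15 (ENSMUSG00000012405.15, chr14:18267823-18271391, minus strand), a large subunit protein, had 24.9 and 30.3 normalised CPM with PM and 18.6 and 23.2 with OI and PM in WT cells. Acod1-/- libraries had 31.6 and 29.0 with PM and 20.7 and 23.1 with OI and PM. The groups did not overlap in either genotype. The log2 fold change was -0.40 ± 0.12 (SE, edgeR adjusted p = 0.025) in WT and -0.47 ± 0.12 (edgeR adjusted p = 0.015) in Acod1-/- cells. Rpl5, which binds 5S rRNA with Rpl11, had 14.8 and 16.3 CPM with PM and 11.0 and 12.7 with OI and PM in WT cells, a log2 fold change of -0.39 ± 0.11 (edgeR adjusted p = 0.013). In WT cells neither passed the test without the first OI and PM library (Rpl15 -0.25, Rpl5 -0.29) or without the second PM library (-0.25 and -0.32), and Rpl15 did not pass in Acod1-/- cells without the first library of either group (-0.39 and -0.40). With the compared WT groups fitted alone neither gene was called, against 11.9% of all tested genes called lower. Neither Rpl15 nor Rpl5 had a unique coding window. Rpl15 overlaps Nkiras1, whose own log2 fold change with OI in WT cells was 0.52.

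The start of Rpl15 is shown beside that of Rpl5 because the pyrimidine run is a feature of this gene class. Each line has 15 bases before the RefSeq start and 15 from it (GRCm38.p6), and capitals mark an unbroken run of at least 6 C or T that covers the start.
Rpl15, chr14:18270972-18271001, minus strand: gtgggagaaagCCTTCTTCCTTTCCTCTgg
Rpl5, chr5:107900513-107900542, plus strand: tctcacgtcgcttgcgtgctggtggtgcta
Such a run was found in 29.6% of the 54 members with a RefSeq start and in 8.48% of 27025 genes. A run that lay beside the annotated start, as in Rpl4, was not counted. How exact the annotated starts are was not tested, so a gene without a match may still have a run close by. The other members had no entry. A match describes these letters and says nothing of translation. The fold changes of Rpl15, with a run over the annotated start, and Rpl5, without one there, were in the same direction.

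**Figure D5:**
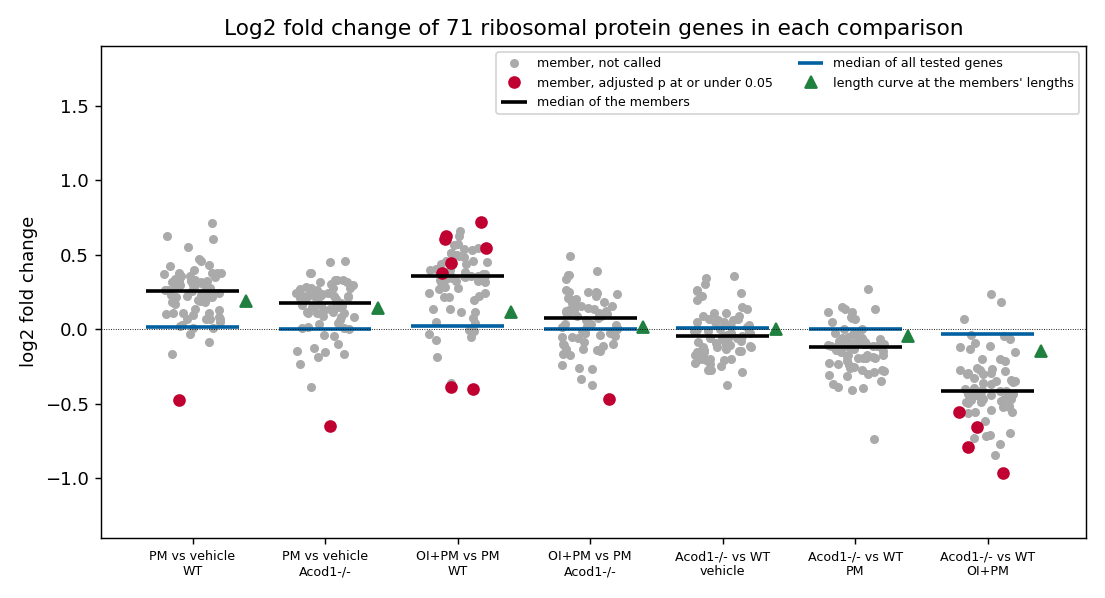
Each point is the log2 fold change of 1 of 71 genes in a comparison, red where the adjusted p was at or under 0.05. Lines give the members' median (black) and that of all tested genes (blue), and green triangles the length curve at the members' lengths; the widest gap between black and blue is in the comparisons with OI and PM-treated WT libraries.

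Between genotypes, 0 members were called higher or lower with vehicle, against 0.891% and 0.935% of tested genes, and 0 with PM, against 1.1% and 1.3%. DESeq2 also called 0 in both, against 1.23% of genes higher and 1.51% lower with vehicle and 1.83% and 2.03% with PM. By edgeR 0 and 2 members had an unadjusted p under 0.05, against 10.2% and 14.0% of all tested genes. With the vehicle groups fitted alone 3 members were higher and 16 lower, against 10.4% and 10.3%, and without both second PM-exposed WT libraries 5 were higher with PM, against 4.37%. The median log2 difference, Acod1-/- minus WT, was -0.05 with vehicle and -0.12 with PM. The value with PM turned to 0.05 without the second PM-treated WT library and was -0.28 without the first, and with vehicle it was -0.01 without the second WT library and -0.09 without the first.

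With OI and PM 0 members were higher in Acod1-/- cells, against 2.51%, and 4 were lower, against 4.45%. These included Rps12 (log2 difference -0.97), Rps28 (-0.79) and Rps18 (-0.65). Rps28, a small protein of the small subunit, had 26.9 and 40.1 normalised CPM in WT and 19.4 and 19.2 in Acod1-/- libraries (edgeR adjusted p = 0.044), and the groups did not overlap. The members' median was -0.41, with 3 of 71 above 0, and 32 members had an unadjusted p under 0.05, against 29.2% of all tested genes. Without the second OI and PM-treated WT library the members' median was -0.08, and without the first it was -0.72. Without the first or the second Acod1-/- library it was -0.37 and -0.48. The length curve gave -0.15 at the members' lengths. After correction for exonic length the median was -0.25 and 19 were lower, against 8.43% of all tested genes, and DESeq2 called 19 lower, against 6.94%. With the compared groups fitted alone 0 members were called, against 0.0178% of all tested genes higher and 0% lower. With scaling factors from other short genes 0 were called as well, against 0.552% and 0.383%.

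Whether an effect differed between genotypes was tested by interaction. By edgeR 0% of all tested genes were called for PM and 0% for OI, members included. DESeq2 called 0 members, against 0.0178% of genes higher and 0.00891% lower for PM and 0.116% and 0.187% for OI. Without the first OI and PM-treated WT library, edgeR called 15 members lower in the OI interaction, against 3.31% of all tested genes. The smallest unadjusted p among members was 0.013 for PM (Rps12) and 0.049 for OI (Rpl7a), and the edgeR adjusted p of Rpl7a was 0.77. With all libraries, the different numbers of called members in WT and Acod1-/- cells are not shown to be a difference between genotypes.

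Among genes used as references, Rpl13a, for which the study lists qPCR primers, had log2 fold changes of 0.07 ± 0.17 (SE) with PM and 0.37 ± 0.17 with OI and PM in WT cells, with edgeR adjusted p of 0.78 and 0.10. In Acod1-/- cells they were 0.01 and 0.03. Its normalised CPM was 17.6 and 26.0 in the OI and PM-treated WT libraries and 13.8 to 18.5 in the other libraries. Rpl32 had log2 fold changes of 0.32 with PM and 0.37 with OI and PM in WT cells, neither called.

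The members whose group means spread most were Rpl26, Rpl36, Rps12, Rps21 and Rpsa. Rpl36 was near the floor, with 29 to 75 counts, and had a CPM above 1.5 in 4 libraries, all of them PM-exposed. It passed the filter through libraries where it was high, so its place in this ranking is not independent of the filter. Rps21, of the small subunit, had 75.0 and 81.8 normalised CPM in vehicle-treated WT cells, 87.9 and 116 with PM, and 110 and 205 with OI and PM, against 69.5 to 97.9 over the Acod1-/- libraries. Rpl26 had 64.9 and 74.0, 71.8 and 102, and 94.6 and 159 in the same WT groups, against 56.2 to 77.6 in Acod1-/- libraries. Both had their highest value in the second OI and PM-treated WT library, and neither was called. The edgeR adjusted p of Rpl26 between genotypes with OI and PM was 0.051.

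The paralogues gave no call. With OI and PM against PM in WT cells, Rpl22 had a log2 fold change of 0.36 and Rpl22l1 -0.18, and Rpl7 had 0.31 and Rpl7l1 -0.05. In Acod1-/- cells the values were 0.09, -0.18, 0.12 and -0.05. Rpl22l1 had 20.1 and 25.4 normalised CPM in the OI and PM-treated WT libraries, against 22.8 and 28.8 with PM, while Rpl22 had 160 and 230 against 134 and 171. Rps27l, a paralogue induced by p53, had 50.6 to 103 CPM over all libraries while its partner Rps27 was under the filter, with 28 to 46 counts. Rpl39 and Rps4x had log2 fold changes of 0.38 and 0.31 with OI in WT cells, Rpl10 had 0.13 and Rpl3 -0.08.

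The medians of large and small subunit members are given side by side, and their difference was not tested. With PM these were 0.22 and 0.30 in WT and 0.13 and 0.22 in Acod1-/- cells, with OI in WT cells 0.35 and 0.36, and between genotypes with OI and PM -0.38 and -0.45. The 33 ribosome biogenesis genes had medians of 0.15 with OI in WT and 0.14 in Acod1-/- cells, against 0.36 and 0.07 for the members, with 9 called higher in each (against 21.3% and 13.9% of all tested genes). The 19 other genes known for 5′ TOP mRNAs had a median of 0.23 with OI in WT cells, with 3 called higher, and 0.07 in Acod1-/- cells, with 1, against the same shares of all tested genes.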

How the data were processed

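The authors deposited unnormalised read counts for each gene, made from single-end reads of 50 bases with STAR 2.5.3a (GRCm38) and featureCounts. The annotation release and the handling of strand and of reads with several map positions are not given in the sources used here. Members and lists were chosen with earlier results of these data known. Genes with CPM above 1.5 in at least 2 libraries were fitted in all 12 libraries with edgeR 4.0.16 (TMM factors, quasi-likelihood test; R 4.3.3), p-values were adjusted over 11228 genes, and a member was called at an adjusted p at or under 0.05. Normalised CPM is CPM after TMM scaling. On simulated counts for PM in WT cells (11228 genes) 22% of 1.25-fold, 76% of 1.5-fold and 98% of 2-fold changes were called, as were 11 unchanged genes. Each gene was drawn independently, with a spread set by its average level and without the length-linked difference between WT libraries. These shares are therefore not rates for the members. Named genes were reference genes, paralogues, the 5 largest called changes in each direction per comparison with CPM of at least 5, the 3 smallest interaction p, the extremes of level and spread, and the edges of the filter. DESeq2 1.42.0, other scalings, length corrections (lowess span 0.3), the replicate block and left-out libraries were alternatives. The length curve used genes other than the members. Symbols came from a table of identifiers, which matched 48349 of 48795. Sequences came from annotated GRCm38 transcripts and RefSeq. Counts cover all members, and some members are not reported here by name.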

Additional observations from a re-analysis of the deposited data

How the results depend on the processing

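Rpl10a was called lower with PM in all 16 alternatives in WT cells and all 15 in Acod1-/- cells, with log2 fold changes of -0.75 to -0.44 and -0.89 to -0.58. No named gene that was called changed direction in any alternative, and the cause of moves in the counts was not tested. The counts of called members with PM in WT cells went from 1 to 34 without the CPM filter, 3 in the compared groups alone, 2 with exonic or coding length correction or with factors from short genes, and 1 to 3 with a library left out; in Acod1-/- cells they went from 1 to 12, 40, 2, 3 and 4 (no filter, groups alone, exonic length, coding length, short genes), with 1 in each left-out fit. With OI in WT cells 8 became 23 with DESeq2, 0 in the groups alone, 26 with either length correction, 47 without the filter, 5 with total count scaling and 2 to 54 with a library left out; in Acod1-/- cells 1 became 2 with RLE, total count or short-gene factors, 13 alone, 7 and 4 with exonic and coding length, 6 without the filter and 0 to 2 with a library left out. Between genotypes with vehicle 0 became 19 in the groups alone, and with PM 0 became 1 with coding length and 1 without the filter. With OI and PM 4 became 19 with DESeq2 or exonic length, 21 with coding length, 43 without the filter, and 0 alone or with short-gene factors. With a library left out, the members' median between genotypes with OI and PM ran from -0.72 to -0.08. The OI interaction went from 0 to 1 without the filter and 0 to 15 with a library left out. A log2 fold change of at least 1 left 0 called members in every comparison. Beside the larger counts, the share of all tested genes called in the same fit and direction was, with OI in WT cells, 22.4% higher with DESeq2 (21 members), 24.8% with coding length (22) and 10.8% without the filter (45). For OI in Acod1-/- cells fitted alone it was 24.3% higher (10 members), and for the genotypes with OI and PM 6.94% lower with DESeq2 (19), 8.43% with exonic length (19), 8.93% with coding length (20) and 4.54% without the filter (43). Genotypes with vehicle fitted alone had 10.3% lower (16). Chosen after seeing the data, leaving out both second PM-exposed WT libraries gave 7, 36, 5 and 15 called members (PM in WT, OI in WT, genotype with PM, genotype with OI and PM), with lone libraries assumed to vary like the rest and 17.8%, 23.8% and 4.37% of all tested genes called higher in the first 3 and 7.32% lower in the last (5, 34, 5 and 13 members), and members with over 20% unique windows gave 0, 0, 3, 0 and 0 (PM in WT and Acod1-/-, OI in WT and Acod1-/-, genotype with OI and PM). The class with over 20% unique windows held 22 members, and its 3 calls with OI in WT cells were all higher, against 21.3% of all tested genes. Its counts of 0 stand against the shares given above for the same comparisons. Equal replicate numbers mark nothing shared in the sources: the correlation of replicate differences between groups ran from -0.40 to 0.71, and from 0.21 to 0.71 among the WT groups. The replicate block gave 2 called members with PM and 20 with OI in WT cells (18 higher, against 22.5% of all tested genes) and 6 lower in the genotypes with OI and PM (against 4.86%), and with exonic length correction as well 3, 3, 31, 9, 1 and 21 (PM in WT and Acod1-/-, OI in WT and Acod1-/-, genotype with PM, genotype with OI and PM), where 28 were higher with OI in WT cells against 26.2% of all tested genes and 21 lower in the genotypes with OI and PM against 9.24%. Without the 10 most abundant other genes the members' share was 0.802%, 0.914%, 1.13%, 0.751%, 0.833% and 0.877% (WT then Acod1-/- cells, each with vehicle, PM, OI and PM). Low counts limit the 12 members under the filter, which had at most 57 counts in a library.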
